A study of Mus musculus with 2 samples.

Results

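The genes described here encode the structures that fasten basal keratinocytes to the underlying basement membrane. They are the integrin genes Itgb4, Itga6, Itga3 and Itgb1, the transmembrane collagen gene Col17a1, the laminin chain genes Lama3 and Lamb3, and the plakin genes Dst and Plec. The 9 genes were chosen by name, as those whose symbol in the platform annotation (or a synonym) is one of these, out of 12393 genes named on the array. This choice was made with earlier results of these data known. The 9 genes were represented by 21 probe sets, and 1 further probe set annotated jointly to Plec and another gene was not used.

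Back skin was taken from mice aged 10 days, and total RNA was labelled with biotin for 1-colour arrays. The array titled K14Ahr held RNA of transgenic mice that carry a permanently active aryl hydrocarbon receptor (AhR) in their keratinocytes, and the array titled WT held RNA of wild-type littermates without the transgene. The title names K14, but the labels do not describe the promoter, the strain or the number of animals or lines behind an array. Each group is 1 array, 2 arrays in all, so there is no replicate error, no difference could be tested, and all values compare these 2 arrays only.

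AhR is a transcription factor that dimerises with ARNT and induces enzymes of xenobiotic metabolism when a ligand such as dioxin binds it. The hemidesmosome is the rivet-like junction on the lower face of the basal keratinocyte. In it, the integrin alpha6beta4 and collagen XVII (BP180) span the membrane, plectin and the epithelial form of dystonin (BP230) tie them to the keratin 5 and keratin 14 filaments inside the cell, and laminin-332, which holds the Lama3 and Lamb3 chains, is their anchor outside. The integrin alpha3beta1 binds the same laminin but connects to actin. Inherited loss of the hemidesmosome proteins or of laminin-332 makes skin blister, and laminin-332 is laid down by keratinocytes as they close a wound.

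Promoter sequence was at hand for 5 of the 9 genes, as 8 windows of 300 bases from 250 before to 50 after an annotated transcript start (RefSeq, GRCm38.p6). The 3 shown are one window for each of Lamb3 and Dst, which hold the core of the AhR-ARNT binding motif, and that of Col17a1, which does not hold it. The log2 ratios of these 3 genes on the arrays ran from 0.59 to 0.69. Capitals mark GCGTG or its reverse complement, with the whole of the longer form TNGCGTG where it is present. The Lamb3 window is chr1:193301744-193302043 (plus strand), the Dst window is chr1:34160010-34160309 (plus strand) and the Col17a1 window is chr19:47691993-47692292 (minus strand).
Lamb3: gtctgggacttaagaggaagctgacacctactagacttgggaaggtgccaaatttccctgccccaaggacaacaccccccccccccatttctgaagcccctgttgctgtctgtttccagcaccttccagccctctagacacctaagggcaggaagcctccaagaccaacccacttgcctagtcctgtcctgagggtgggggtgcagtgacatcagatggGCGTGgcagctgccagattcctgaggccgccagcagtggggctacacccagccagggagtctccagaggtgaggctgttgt
Dst: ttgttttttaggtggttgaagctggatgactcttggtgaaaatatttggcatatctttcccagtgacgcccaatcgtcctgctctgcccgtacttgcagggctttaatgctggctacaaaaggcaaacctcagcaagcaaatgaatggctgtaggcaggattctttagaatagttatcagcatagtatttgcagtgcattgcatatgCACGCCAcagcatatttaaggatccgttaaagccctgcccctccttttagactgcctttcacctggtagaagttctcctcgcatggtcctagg
Col17a1: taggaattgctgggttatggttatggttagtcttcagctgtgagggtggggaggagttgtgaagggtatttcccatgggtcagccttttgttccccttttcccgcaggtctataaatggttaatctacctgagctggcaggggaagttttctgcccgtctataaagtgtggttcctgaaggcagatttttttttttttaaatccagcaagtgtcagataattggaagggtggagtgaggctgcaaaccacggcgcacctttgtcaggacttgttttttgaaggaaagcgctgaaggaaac
The match in Lamb3 begins 31 bases before the start, and the match in Dst begins 43 bases before the start on the opposite strand. Searched on both strands, GCGTG was present in 2 of the 8 windows, against 32.4% of all 32851 windows of this length. The longer TNGCGTG, which contains the core, was present in 1 of the 8, the Dst window, against 5.07% of all windows. The AP-1 motif TGANTCA, which reads the same on both strands apart from its middle base, was present in 1 of the 8 windows, a second start of Itga3, against 7.81% of all. A match describes the letters in these windows and nothing about binding.

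On the arrays, the brightest probe sets of most anchoring genes read higher in transgenic than in wild-type skin, from 1.27-fold (Plec) to 2.02-fold (Itgb4). For Itga3, Itgb1 and Plec the 2 brightest probe sets had opposite signs. With each gene represented by its brightest probe set, 8 of the 9 had a log2 ratio (transgenic over wild type) above 0, against 43.6% of the 8894 measured genes, and the median was 0.59, a ratio of 1.51-fold. The count above 0 was 7 of 9 with the mean over measured probe sets and 6 of 9 with the dimmest measured one. A gene counts as measured when its signal exceeds a floor of 34.7 on at least 1 array. The median over all measured genes was -0.05, and their middle 90% ran from -0.64 to 0.70. Of the 9 genes, 1 (Itgb4) was at least 2-fold higher, against 2.27% of measured genes, and none was at least 2-fold lower, against 1.09%. At a limit of 1.5-fold, 5 of the 9 were higher, against 6.8% of measured genes, and none was lower, against 6.38%. That count of 5 was 3 of 9 with a pseudocount of 16, where Lama3 (log2 0.56) and Lamb3 (0.505) fell short of the limit, and 1 of the 5 genes left when probe sets with a letter suffix were dropped. As a measure of technical scatter, the log2 ratios from 2 probe sets of the same gene were compared across 2535 genes, which gave an SD of 0.26 for a single probe set. This SD holds differences between probes, not between animals, and was taken only from pairs with every signal over the floor.

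**Figure D1:**
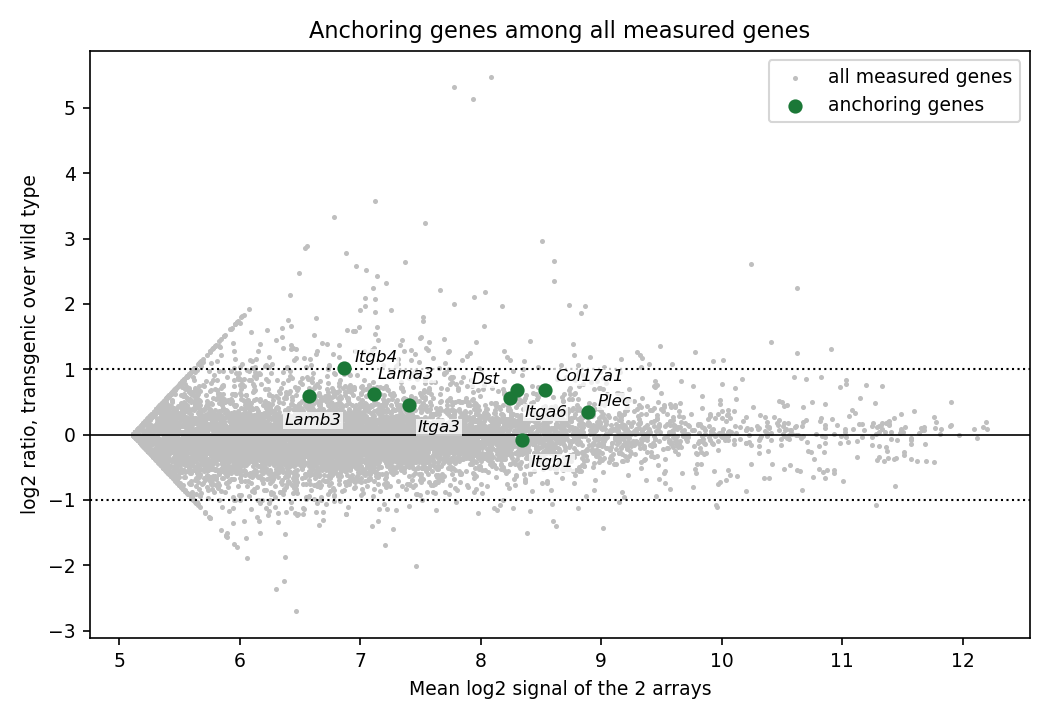
Log2 ratio, transgenic over wild type (vertical axis), against the mean log2 signal of both arrays (horizontal axis), 1 point per measured gene, with the 9 anchoring genes in green and dotted lines at a 2-fold difference. Itgb4 sits at 1.02 just beyond the upper line, Itgb1 at -0.09 is the one anchoring gene below 0, and the others lie between 0.35 and 0.69.

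Itgb4, the beta4 chain with the long cytoplasmic tail that recruits plectin, had the highest ratio of the 9. Its only probe set (1427387_a_at) read 166 in transgenic skin and 82.3 in wild-type skin, a ratio of 2.02-fold (log2 1.02), at percentile 97.8 of measured genes. This lies only just past the 2-fold limit, and after adding a pseudocount of 16 instead of using a floor the log2 ratio was 0.89. Itga6 encodes alpha6, the partner of beta4 in the hemidesmosome, which can also pair with beta1. Its brighter probe set (1422445_at) read 367.5 in transgenic skin and 249.5 in wild-type skin (log2 0.56, 1.47-fold), and the other (1422444_at) read 194 in transgenic skin and 108 in wild-type skin (log2 0.85, 1.80-fold). Both probe sets derive from the same source sequence and both were higher on the transgenic array. The brighter ratios of the 2 chains differed by 0.46 on the log2 scale, against an SD of 0.36 for a difference between 2 probe sets of a single gene.

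Collagen XVII and the laminin chains gave closely similar ratios. Col17a1, the collagen that spans the membrane beside the integrin, read 471 in transgenic skin and 293 in wild-type skin (log2 0.69, 1.61-fold). Lama3, the alpha chain of laminin-332, to which the integrins bind, read 172 in transgenic skin and 111.5 in wild-type skin (log2 0.62, 1.54-fold). Lamb3, the beta chain of the same laminin, read 117 in transgenic skin and 78.0 in wild-type skin (log2 0.59, 1.51-fold). The 2 laminin chains differed by 0.03 on the log2 scale, far less than the scatter between probe sets. These 3 genes and Itgb4 have 1 probe set each, all with the suffix _a_at, which marks a probe set that reads several transcripts of one gene. No second probe set stands beside their values.

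The plakins link the membrane complex to keratin filaments. Dst, the gene of dystonin, whose epithelial form is BP230, has 4 probe sets. The brightest (1421117_at) read 400 in transgenic skin and 250 in wild-type skin (log2 0.68, 1.60-fold), and the second (1450119_at), annotated to the same RefSeq transcript, read 259 in transgenic skin and 176 in wild-type skin (log2 0.56, 1.47-fold). Both therefore showed the higher signal in transgenic skin. The third (1423626_at) read 33.9 in transgenic skin, just under the floor, and 36.7 in wild-type skin (log2 at most -0.08), and the fourth (1421276_a_at), annotated to another RefSeq transcript, read 8.5 in transgenic skin and 9.3 in wild-type skin, below the floor in both. Dst makes different proteins in epidermis, nerve and muscle, and the annotation does not say which of them each probe set reads. Plec, the gene of plectin, the linker between beta4 and keratin that is also made in muscle and many other tissues, gave readings of opposite direction. Its brighter probe set (1434610_at) read 534 in transgenic skin and 420 in wild-type skin (log2 0.35, 1.27-fold), whereas the other (1419835_s_at) read 382 in transgenic skin and 495 in wild-type skin (log2 -0.38). The suffix _s_at marks probes that may also bind other transcripts.

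**Figure D2:**
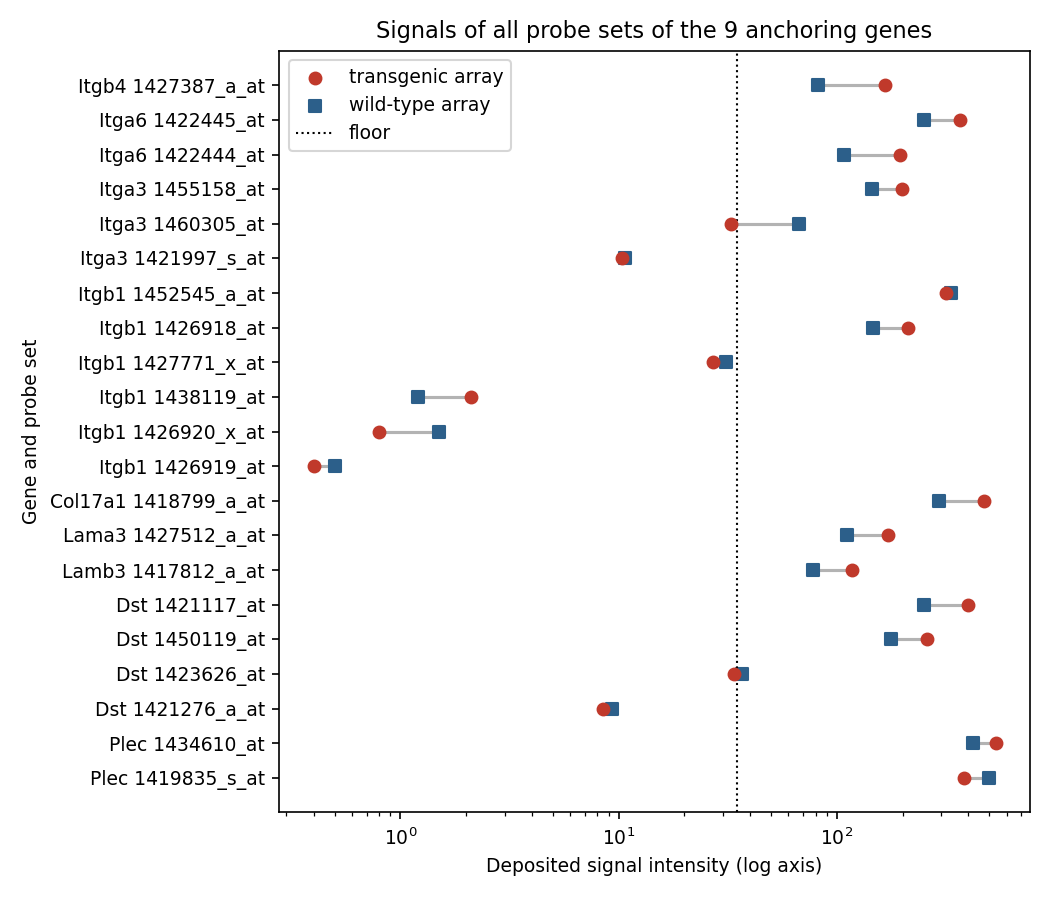
Deposited signal (log axis) of all 21 probe sets of the 9 genes, with the transgenic array as red circles, the wild-type array as blue squares and the floor as a dotted line. The 6 probe sets left of the line on both arrays belong to Itga3 (1), Itgb1 (4) and Dst (1), and in most of the brighter pairs the red point lies to the right of the blue one.

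The chains of the actin-linked integrin alpha3beta1 had no settled direction. Itga3, which encodes alpha3, read 199 in transgenic skin and 145 in wild-type skin with its brightest probe set (1455158_at; log2 0.45, 1.37-fold). A second (1460305_at) read 32.6 in transgenic skin, below the floor, and 67.3 in wild-type skin, so that its log2 ratio is at most -0.96, and the third (1421997_s_at) was below the floor in both, at 10.4 in transgenic skin and 10.7 in wild-type skin. The brighter 2 readings differed by at least 1.41, which is 3.88 times the SD of a difference between 2 probe sets of one gene. That SD came only from pairs with every signal over the floor. The transgenic reading of 1460305_at was under it, so the SD does not describe a pair like this one. The multiple is therefore no measure of how unusual the difference is. Itgb1 encodes beta1, the partner of many alpha chains in nearly all cells of skin. Its brightest probe set (1452545_a_at) read 315 in transgenic skin and 334 in wild-type skin (log2 -0.09), while the second (1426918_at) read 211 in transgenic skin and 147 in wild-type skin (log2 0.52, 1.44-fold). The other 4 probe sets of Itgb1 were below the floor on both arrays, spanning 0.4 to 27.0 in transgenic skin and 0.5 to 31.0 in wild-type skin.

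Over all 21 probe sets, 15 exceeded the floor on 1 array or both, and 11 of those had a log2 ratio above 0, against 43.1% of the 13276 measured probe sets with 1 gene. Of the 5 genes with more than 1 measured probe set, the 2 brightest had the same sign in 2 (Itga6 and Dst) and opposite signs in 3 (Itga3, Itgb1 and Plec). The higher signal in transgenic skin was therefore read by more than 1 probe set for Itga6 and Dst, by a single one for Itgb4, Col17a1, Lama3 and Lamb3, and with disagreement for the remaining 3. The choice of probe set moved Itga3, Itgb1 and Plec across 0, and Dst did so with its probe set at the floor, whereas no other scaling or floor did so for any of the 9.

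**Figure D3:**
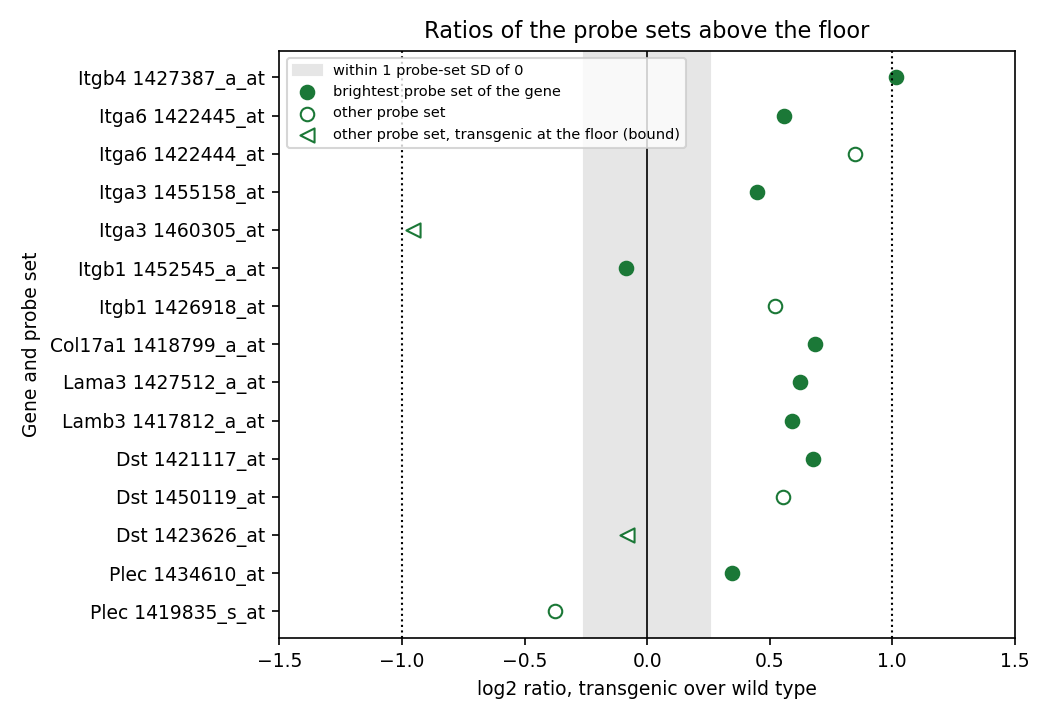
Log2 ratio, transgenic over wild type, for the 15 measured probe sets. Filled points are each gene's brightest probe set, open points its others, and triangles are bounds where the transgenic signal lay at the floor; the grey band is 1 SD of technical scatter (0.26) on either side of 0 and dotted lines mark a 2-fold difference. The filled point of Itgb1 lies inside the band, and those of the other genes lie to its right, from 0.35 for Plec to 1.02 for Itgb4.

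Partners of the anchoring complex did not all share this pattern. Their median log2 ratio was 0.21 over 7 measured genes (0.38 over 6 when probe sets with a letter suffix were dropped). Of the 7, 0 passed the 2-fold limit upwards, against 2.27% of all measured genes, and 1 passed it downwards, against 1.09%. Cd151, a tetraspanin that associates with alpha3beta1 and alpha6beta4, read 582.5 in transgenic skin and 347 in wild-type skin (log2 0.75) with its brightest probe set, and its 4 other measured probe sets ran from -0.12 to 0.56. The basal keratins to which the plakins attach were higher on the transgenic array by a similar amount. Krt14 read 3328 in transgenic skin and 1987 in wild-type skin (log2 0.74, with 0.66 and 1.01 from its other probe sets), and Krt5 read 2754 in transgenic skin and 1868 in wild-type skin (log2 0.56). Col7a1, the collagen of the anchoring fibrils beneath the basement membrane, read 131 in transgenic skin and 114 in wild-type skin (log2 0.21). Bmp1, a protease that processes laminin and collagen VII, read 129 in transgenic skin and 128.5 in wild-type skin (log2 0.00). Erbin, a protein that binds beta4 and BP230, was lower, at 146 in transgenic skin and 211 in wild-type skin (log2 -0.53, and -0.27 from its other measured probe set). Krt15, a basal keratin enriched in the hair follicle bulge, read 317 in transgenic skin and 851 in wild-type skin and was 2.69-fold lower in transgenic skin (log2 -1.43).

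Other components of basement membranes lay lower. Of 20 measured genes 5 lay above 0, against 43.6% of all measured genes. The median of -0.12 was 0.71 below that of the anchoring genes. None passed the 2-fold limit upwards, against 2.27% of all measured genes, and 1 passed it downwards, against 1.09%. The highest were Fbln1, a fibulin (log2 0.40), and the ubiquitous collagen IV chains Col4a1 (0.32) and Col4a2 (0.23). The lowest were chains of other epithelial basement membrane assemblies. Lama5, the alpha chain of laminin-511, another laminin of the epidermal basement membrane, read 136 in transgenic skin and 211 in wild-type skin (log2 -0.64, and -0.52 with its other probe set). Col4a5, a chain of the alpha5 and alpha6 collagen IV network, read 61.4 in transgenic skin and 111 in wild-type skin (log2 -0.85, and -0.49 with its other probe set). Col4a6, its partner chain, read 31.2 in transgenic skin, below the floor, and 74.8 in wild-type skin, at least 2.16-fold lower, and its other probe set was below the floor on both arrays. On the same 2 arrays, then, the alpha chain of laminin-332 read higher and that of laminin-511 lower in transgenic skin.

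Among 19 measured integrins and focal adhesion genes none was 2-fold higher or lower, against 2.27% and 1.09% of all measured genes. Of the 19, 13 lay above 0, against 43.6% of all measured genes, and the median was 0.09. The highest were the actin-associated genes Zyx (zyxin, log2 0.84) and Actn1 (alpha-actinin-1, 0.74, with 0.55 or more from its other probe sets) and Ilk, the integrin-linked kinase (0.69). The lowest were Lims1, a partner of Ilk (-0.51, but -0.06 from its other measured probe set), and Itga2 (at most -0.37) and Itga9 (at most -0.13), integrin chains that lay near the floor. Desmosomes, which attach keratin between keratinocytes, are the nearest junction in build. Their 13 measured genes had a median of 0.01 (-0.09 over 10 genes when probe sets with a letter suffix were dropped). Of the 13, 7 lay above 0, against 43.6% of all measured genes. The 2-fold limit was passed by 1 of the 13, Dsc2, downwards, against 1.09% of all measured genes. The plakophilin gene Pkp1 (0.42), the p63 target Perp (0.38) and the desmosomal cadherin gene Dsc3 (0.19) were highest, and Ppl (periplakin, -0.33) and the cadherin genes Dsg2 (-0.35) and Dsc2 (-1.32) lowest. The anchoring median exceeded the desmosome median by 0.58 on the log2 scale. With 1 array per group none of these differences between lists could be tested, and the lists were chosen with earlier results of these data known.

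**Figure D4:**
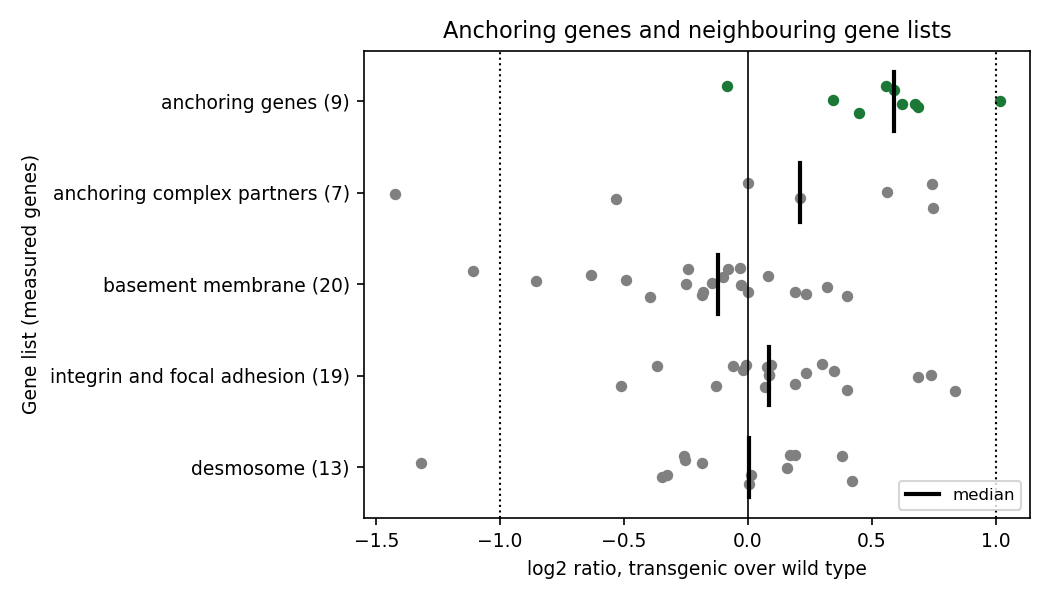
Log2 ratio, transgenic over wild type, for each measured gene of the 9 anchoring genes (green) and of the 4 neighbouring lists (grey), with the number of measured genes in brackets, a black bar at each median and dotted lines at a 2-fold difference; points are spread vertically for legibility. The medians are 0.59 for the anchoring genes, 0.21 for their partners, -0.12 for basement membrane, 0.09 for integrins and focal adhesions and 0.01 for desmosomes (-0.09 when probe sets with a letter suffix were dropped).

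Whole skin holds other cells that make some of these proteins, and in such RNA a smaller number of cells and less RNA per cell cannot be told apart. Of 4 basal keratinocyte markers, all measured, the summed signal was 6757 in transgenic skin and 5143 in wild-type skin. Their log2 ratios ran from Krt14 at 0.74 to Krt15 at -1.43, and 2 of the 4 lay above 0, against 43.6% of all measured genes. Set against the log2 ratio of Krt5, that of Itga6 was equal (0.56 each), those of Lamb3, Lama3, Dst, Col17a1 and Itgb4 were higher by 0.03, 0.06, 0.12, 0.13 and 0.46, and those of Itga3, Plec and Itgb1 differed by -0.11, -0.21 and -0.65. Set against that of Krt14 (brightest probe set), Itgb4 was the only one higher, by 0.27. The other 8 differed by -0.06 (Col17a1) to -0.83 (Itgb1). Another Krt14 probe set, nearly as bright, gave log2 1.01, about level with Itgb4 (1.02). The other 2 basal markers, Trp63 (-0.29) and Krt15 (-1.43), lay below the brightest probe set of every anchoring gene. For 8 skeletal muscle markers, which label a tissue rich in plectin, the summed signal was 3948 in transgenic skin and 4787 in wild-type skin, with a median of -0.70 and a range from Acta1 (0.07) to Myh8 (at most -1.27). For 6 macrophage markers it was 1717 in transgenic skin and 597 in wild-type skin, with a median of 1.57 and a range from Adgre1 (0.54) to C1qa (2.59). The 6 endothelial markers, of which 5 were measured, summed to 298.5 in transgenic skin and 255 in wild-type skin (median 0.34, from Tek at most -0.54 to Kdr at 0.65). The 6 fibroblast markers summed to 9237 in transgenic skin and 9713 in wild-type skin (median 0.22, from Col1a1 at -0.54 to Pdgfra at 1.40). Of 6 Schwann cell markers 4 had a probe set and 3 were measured, with sums of 620 in transgenic skin and 628 in wild-type skin (median -0.05, from Mbp at -0.35 to Pmp22 at 0.21). Of 5 melanocyte markers 4 were measured, with sums of 1103 in transgenic skin and 2240 in wild-type skin (median -1.09, from Tyr at -1.31 to Pmel at -0.88). No marker read 0 on both arrays. The part of these cells in the ratios of the anchoring genes was not tested.

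**Figure D5:**
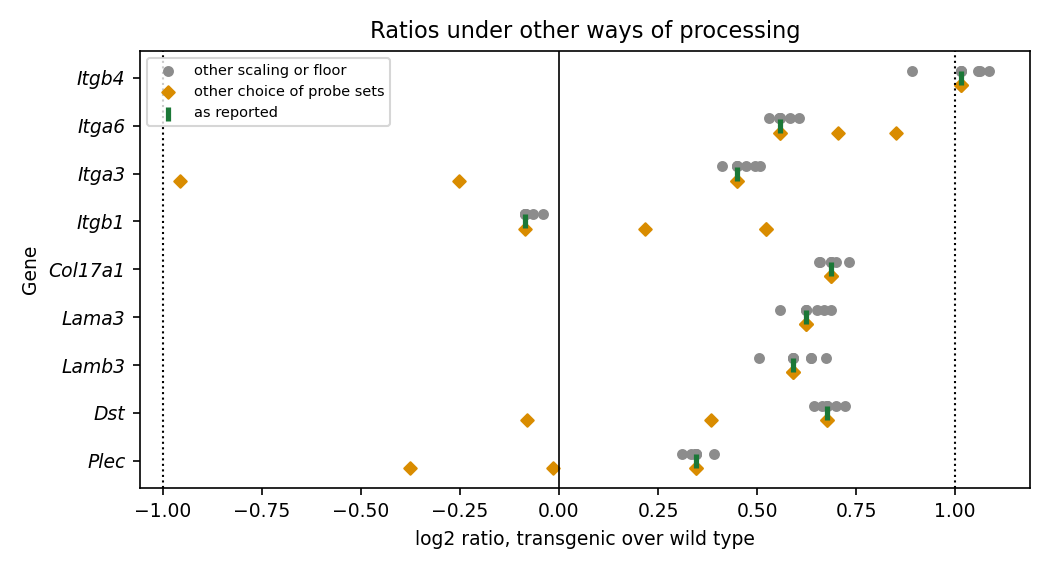
Log2 ratio, transgenic over wild type, of each anchoring gene as reported (green bar), under other scalings or floors (grey points) and under other choices of probe sets (orange diamonds), with dotted lines at a 2-fold difference. Grey points stay close to the reported value, while the diamonds of Itga3, Itgb1, Dst and Plec spread to both sides of 0.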

How the data were processed

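Each probe set had 1 deposited value, a signal intensity on a linear scale. Their 2% trimmed mean was 100.03 on both arrays, so scaling preceded deposit. The software is not stated in the labels. Detection calls were not used here. Of 22690 probe sets, 64 were controls, 20380 had 1 gene in the platform annotation and 691 had several and were not named. Symbols were updated through a GRCm38.p6 gene table.

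Signals were rescaled to equal trimmed means, raised to a floor at the 40th percentile (34.7, exceeded by 59.7% of transgenic and 60.2% of wild-type signals) and put on the log2 scale. Each gene was represented by its brightest probe set (both arrays summed) and called at 2-fold. A ratio with 1 array at the floor is a bound. All 9 genes were named with every probe set, every measured partner, the 3 highest and 3 lowest of each other list, and the extremes of each marker list. Members, lists and settings were chosen with earlier results of these data known. The calculation was tested on simulated data. With 1 array per group, the number of arrays limits precision. Alternatives covered scaling, floor, probe sets and fold limit. Python 3.11.15, numpy 2.4.6, pandas 2.3.3 and statsmodels 0.14.6 were used.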

Additional observations from a re-analysis of the deposited data

How the results depend on the processing

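The count of anchoring genes at least 2-fold higher was 1 as reported, 0 with a pseudocount of 16, 0 of the 5 genes left without suffixed probe sets (Itgb4 drops out), 5 at a limit of 1.5-fold and 0 at 3-fold. It was 1 under the other 9 alternatives. Several of these could not move Itgb4, which has a single probe set with both signals above every floor used. The deposited values were also already scaled alike. No gene was called 2-fold lower under any alternative. With the dimmest probe set, Itga3 was at most -0.96, a bound set by the floor (2.06-fold lower without it). The count at 1.5-fold was 3 with the pseudocount and 1 of 5 without suffixed probe sets. The anchoring median moved by less than 0.26 under each alternative that gives one, from 0.59 to between 0.52 (without suffixed probe sets) and 0.67 (another scaling). The limit of 0.26 is the SD of a single probe set and not of a median. As reported, the median is the value of Lamb3, which has 1 probe set, and the mean or dimmest probe set gave 0.59 again. The 4 neighbouring lists were recomputed under 3 alternatives only (values as deposited, floor at the 60th percentile, without suffixed probe sets), and their medians also moved by less than 0.26. Without suffixed probe sets the desmosome median changed sign, to -0.09 over 10 genes, and that of the partners was 0.38 over 6. For single genes, averaging the measured probe sets gave log2 ratios of -0.25 for Itga3, 0.22 for Itgb1, 0.38 for Dst and -0.02 for Plec, and the dimmest measured probe set gave -0.96, 0.52, -0.08 and -0.38 for the same genes in that order and 0.85 for Itga6. Without suffixed probe sets Itgb1 was at 0.52. All of these changes follow from which probe set is read. Leaving out only _s_at and _x_at probe sets was an alternative chosen after seeing the data. It could not change any of the 9 genes, because none of their brightest probe sets has either suffix. No paired analysis was possible because each group has 1 array, and for the same reason no replicate could be left out.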
